A study of Caenorhabditis elegans with 12 samples.

Results

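The comparison described here set the 8 libraries of worms raised on RNAi against a dopamine gene (cat-1 or cat-2) against the 4 libraries of worms raised on empty vector (EV), and asked which transcripts were at another level upon both RNAi. All 12 libraries of the series were used. The features compared were the 13161 of 46739 in the table that reached at least 0.5 RPKM (reads scaled by feature length and library size) in at least 4 of the 12 libraries, a choice that did not use the groups. A feature of low level could still pass through RNAi libraries alone, which favours the higher side for such features. In all, 20423 features had reads in at least 1 library. Poly(A) RNA of whole *C. elegans* on day 1 of adulthood was sequenced in 4 libraries each from worms fed cat-1 RNAi, cat-2 RNAi or EV bacteria, labelled as biological replicates 1 to 4. Each library came from a pool of many worms, and nothing in the labels says which pools were grown on the same day, so a p-value measures the spread between these pools. All 3 groups were strain PMD216. By its labels it carries dat-1p::GFP, rde-1(ne219) V and rrf-3(b26) II, with sid-1 and rde-1 supplied again from the dat-1 promoter. The strain list of the study's methods adds fem-1(hc17) IV, eri-1(mg366) IV and lin-15B(n744) X. In this strain RNAi by feeding is meant to act only in the dopaminergic neurons, which are a very small part of the animal, while the RNA measured came from every tissue. In RNA of whole worms, fewer cells of a type and less RNA per cell cannot be told apart.

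Dopamine is made from tyrosine by tyrosine hydroxylase, the product of cat-2, and then by the decarboxylase BAS-1, and the vesicular monoamine transporter CAT-1 loads it into synaptic vesicles. Loss of cat-2 therefore lowers the amount of dopamine made, whereas loss of cat-1 leaves it outside the vesicles, in the cytosol. The pooled comparison looks past this contrast to what both treatments shared. Several of its leading genes encode enzymes of propionate breakdown. When vitamin B12 is scarce, *C. elegans* breaks propionate down through an alternative pathway, the propionate shunt, whose first enzyme, ACDH-1, is a widely used reporter of low B12.

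The library totals behind the RPKM scaling, recovered from the values, were 18765779 to 21493743 reads, and the groups overlapped. The weights that limma estimates from how far each library lies from its group were lowest for cat-2 RNAi replicates 2 (0.331) and 3 (0.629), against 1.02 to 1.54 for EV libraries. Leaving out both of these, an alternative chosen after seeing the data, called 1 feature in the pooled comparison (F44G3.2) in place of 0. The targeted genes were measured at very low levels. In libraries labelled cat-1 RNAi, cat-1 itself was at 0.585, 0.322, 1.51 and 0.351 RPKM, and in those labelled cat-2 RNAi at 0.164, 0.206, 0.0853 and 0.136 RPKM, against 0.138, 0.139, 0.0547 and 0.0797 RPKM in EV libraries. In libraries labelled cat-2 RNAi, cat-2 itself was at 1.16, 0.728, 0.837 and 1.90 RPKM, and in those labelled cat-1 RNAi at 0.212, 0.263, 0.0541 and 0.118 RPKM, against 0.120, 0.121, 0.209 and 0.116 RPKM in EV libraries. Each target was thus higher, not lower, in all 4 libraries of its own RNAi than in every EV library. The read ratio to EV was 6.94 for cat-1 (95% exact interval 4.03 to 12.8, counting error only) and 8.17 for cat-2 (5.06 to 13.9), and both reached 0.0286, the smallest two-sided p that an exact permutation test of 4 against 4 can give. The direction goes against a knockdown, so every direction below holds for the libraries as labelled. Reads from worm transcripts and reads from the RNAi construct of the same gene cannot be told apart in this table, so these values do not show the transcript level of the target. The transgene genes sid-1 and rde-1, whose reads also come from the endogenous loci, overlapped between groups: sid-1 averaged 40.3 ± 3.39 RPKM upon RNAi and 41.6 ± 1.53 RPKM upon EV, and rde-1 39.6 ± 3.22 RPKM upon RNAi and 38.03 ± 1.48 RPKM upon EV (SD, n = 8 and n = 4).

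The response common to both RNAi was small. limma on log2(RPKM + 0.5), with the mean of both RNAi groups set against EV, called 0 of 13161 features (0%) at a Benjamini-Hochberg adjusted p under 0.05, and voom, a count-based form of limma run on the reads recovered from the RPKM values, also called 0. At an unadjusted p under 0.05, 637 features were higher (4.84%) and 421 were lower (3.20%). Together these were 8.04% of the features, where a threshold of 0.05 gives 5% without any difference. The voom fit gave 576 higher and 435 lower. Fold changes, all on the log2(RPKM + 0.5) scale, ranged from -2.53 to 1.35. Their median was 0.01 and the middle part of the distribution ran between quartiles of -0.06 and 0.08. Only 10 features differed by 1 or more, and 12107 differed by less than 0.3. Since this scale understates differences of features near 0.5 RPKM, read counts are given beside values for several of them. The adjusted p of every gene named below was 0.242 or more in the pooled comparison. In what follows, higher and lower describe values of RNAi libraries relative to EV libraries, not calls.

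The propionate shunt held 3 of the 10 lower genes with the smallest p. acdh-1 (chromosome I, 6497436 to 6499560, ce11), the acyl-CoA dehydrogenase of the first step, was at 29.2, 42.3, 39.2 and 57.5 RPKM in cat-1 RNAi libraries and 54.5, 67.3, 59.9 and 47.0 RPKM in cat-2 RNAi libraries, against 66.4, 113, 91.7 and 103 RPKM in EV libraries. All but cat-2 RNAi replicate 2 were below every EV library, and EV replicate 1 was the EV library nearest to the RNAi libraries. The mean was 49.6 ± 12.5 RPKM upon RNAi, which is 53.1% of the EV mean of 93.5 ± 20.2 RPKM (SD, n = 8 and n = 4). The log2 fold change was -0.92 ± 0.18 (SE; limma, unadjusted p = 0.000346, Benjamini-Hochberg adjusted p = 0.381). ech-6 (chromosome III, 9751552 to 9752883), the enoyl-CoA hydratase of the next step, was at 145, 147, 148 and 156 RPKM in cat-1 RNAi libraries and 147, 152, 160 and 144 RPKM in cat-2 RNAi libraries, against 168, 181, 170 and 173 RPKM in EV libraries. The groups did not overlap, although the gap was narrow: the highest RNAi library was at 160 RPKM and the lowest EV library at 168 RPKM. Its log2 fold change of -0.21 ± 0.04 had the smallest p of all lower features (limma, unadjusted p = 5.83e-05, Benjamini-Hochberg adjusted p = 0.275). Y38F1A.6, now named hphd-1 (chromosome II, 12994354 to 12996571), encodes the 3-hydroxypropionate dehydrogenase of the shunt. It was at 23.2, 28.4, 32.2 and 34.9 RPKM in cat-1 RNAi libraries and 28.03, 35.7, 32.6 and 28.8 RPKM in cat-2 RNAi libraries, against 37.7, 55.1, 48.2 and 49.9 RPKM in EV libraries. Again the groups did not overlap, and again EV replicate 1 was the EV library nearest to the RNAi libraries. The log2 fold change was -0.64 ± 0.12 (limma, unadjusted p = 9.53e-05, Benjamini-Hochberg adjusted p = 0.275).

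The remaining shunt enzymes differed less. alh-8, the semialdehyde dehydrogenase that ends the shunt, averaged 225 ± 13.7 RPKM upon RNAi and 253 ± 26.6 RPKM upon EV (SD, n = 8 and n = 4), with 6 of 8 RNAi libraries below every EV library (log2 fold change -0.16, limma, unadjusted p = 0.0189). Its locus overlaps F13D12.8 on the other strand, and whether reads were counted by strand is not given in the sources used here. F09F7.4 (hach-1), the hydrolase that acts between ECH-6 and HPHD-1, was at 63.8 ± 2.48 RPKM upon RNAi and 67.0 ± 2.49 RPKM upon EV (log2 fold change -0.07, limma, unadjusted p = 0.0884). Thus all 5 enzymes were lower on average, 4 of them at an unadjusted p under 0.05, while over all features tested 3.20% were lower at that threshold and 47.0% were below 0. The list was chosen with earlier results of these data known and holds genes named above for their small p. Its shares are therefore a description and not a separate test. The median over the 5 was -0.21, against 0.01 over all features. The enzymes of the B12-dependent pathway were not set apart in this way. For pcca-1, pccb-1, mce-1, mmcm-1, mmaa-1 and mmab-1 the log2 fold changes were between -0.06 and 0.01, and 0 of 6 reached an unadjusted p of 0.05.

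**Figure D1:**
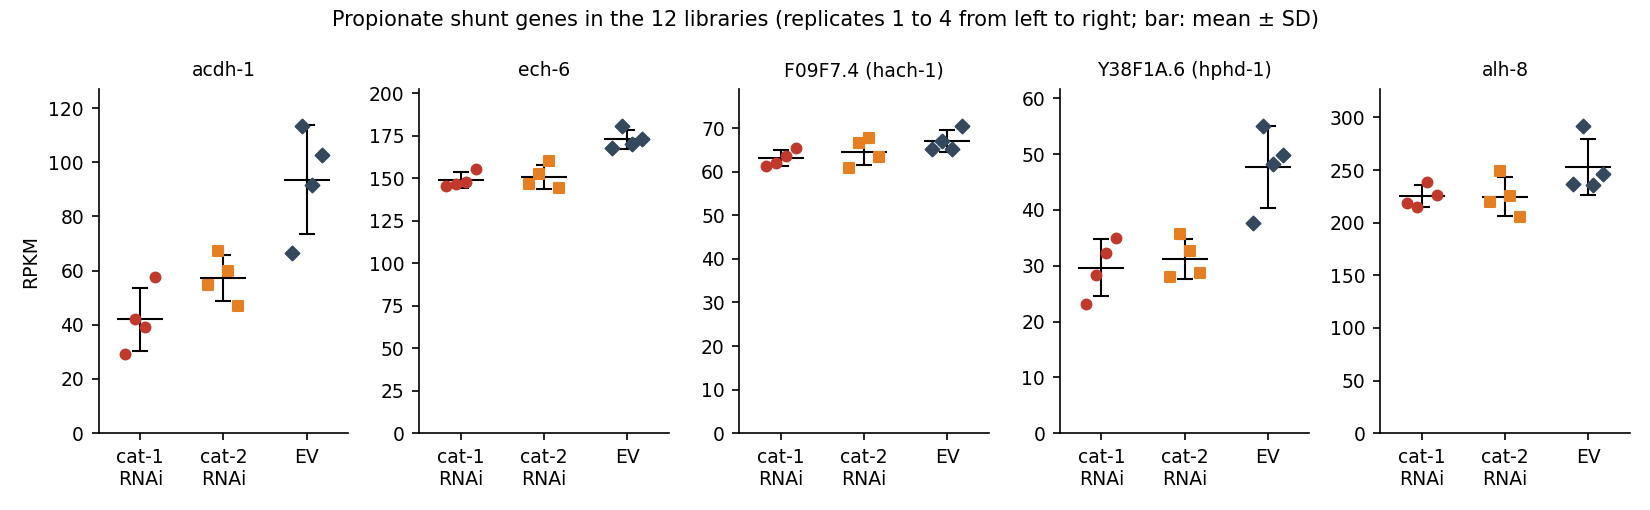
RPKM (vertical axes, each from 0) of the 5 propionate shunt genes in each cat-1 RNAi, cat-2 RNAi and EV library, with bars for the mean ± SD of 4 libraries. The RNAi and EV libraries are apart for ech-6 and Y38F1A.6 (hphd-1), nearly apart for acdh-1, and overlap for F09F7.4 (hach-1) and alh-8.

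Several genes tied to this pathway had lower values upon RNAi as well. nhr-68 encodes a nuclear hormone receptor that activates the shunt genes together with NHR-10. It was at 11, 11.9, 12.8 and 13.0 RPKM in cat-1 RNAi libraries and 15.4, 13.9, 15.5 and 13.2 RPKM in cat-2 RNAi libraries, against 14.1, 16.5, 16.9 and 16.1 RPKM in EV libraries. Here all 4 cat-1 RNAi libraries but only some of the cat-2 RNAi libraries were below the EV range (log2 fold change -0.25, limma, unadjusted p = 0.00388). nhr-10 was at 15.4 ± 0.97 RPKM upon RNAi and 14.1 ± 1.27 RPKM upon EV (SD, n = 8 and n = 4), with an unadjusted limma p of 0.0829. nhr-114, a nuclear hormone receptor of the intestine and germline linked to B12 and tryptophan in the diet, averaged 3.71 ± 0.94 RPKM upon RNAi and 5.18 ± 0.87 RPKM upon EV, with 7 of 8 RNAi libraries below every EV library (log2 fold change -0.45, limma, unadjusted p = 0.0113). hacd-1 (chromosome V, 1460369 to 1461613), which encodes a 3-hydroxyacyl-CoA dehydrogenase, was at 66.5, 81.8, 74.3 and 77.5 RPKM in cat-1 RNAi libraries and 75.1, 80.6, 81.8 and 75.7 RPKM in cat-2 RNAi libraries, against 88.4, 97.4, 89.6 and 88.1 RPKM in EV libraries. The groups did not overlap, and the log2 fold change was -0.25 ± 0.05 (limma, unadjusted p = 0.000312, Benjamini-Hochberg adjusted p = 0.381). Its downstream neighbour fpn-1.2, named after its values were seen, was also below the EV range in 8 of 8 RNAi libraries (1.51 to 2.26 RPKM upon RNAi and 2.27 to 2.70 RPKM upon EV).

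Methyl group metabolism is the other use of B12 in the worm, since methionine synthase (METR-1) needs it. metr-1 itself averaged 56.6 ± 1.52 RPKM upon RNAi and 56.6 ± 1.68 RPKM upon EV (SD, n = 8 and n = 4). sams-1, the main S-adenosylmethionine synthetase, averaged 37.7 ± 3.57 RPKM upon RNAi and 38.8 ± 1.30 RPKM upon EV. pmt-2 (chromosome V, 4628580 to 4635263) encodes the phosphoethanolamine methyltransferase that completes phosphocholine synthesis. It was at 104.2, 103.6, 107.9 and 113.2 RPKM in cat-1 RNAi libraries and 96.3, 107.5, 103.7 and 98.6 RPKM in cat-2 RNAi libraries, against 115, 120, 120 and 125 RPKM in EV libraries. The groups were apart by a small margin, and the log2 fold change was -0.20 ± 0.04 (limma, unadjusted p = 0.00015, Benjamini-Hochberg adjusted p = 0.282). The partner enzyme pmt-1 was at 87.4 ± 5.33 RPKM upon RNAi and 91.5 ± 3.94 RPKM upon EV, with an unadjusted limma p of 0.184. folt-2, of the folate transporter family, was at 7.44, 9.59, 10 and 12.15 RPKM in cat-1 RNAi libraries and 8.45, 9.39, 10.6 and 7.23 RPKM in cat-2 RNAi libraries, against 12.03, 21.1, 14.6 and 16.2 RPKM in EV libraries. All RNAi libraries but cat-1 RNAi replicate 4 were below EV replicate 1, the lowest of EV (log2 fold change -0.73 ± 0.15, limma, unadjusted p = 0.000244). Of the 19 tested genes listed for the methionine cycle and choline, 3 were lower (15.8%) and 0 were higher at an unadjusted p under 0.05. Over all features 3.20% were lower and 4.84% were higher. The 3 were pmt-2, named above for its small p, and the receptors nhr-68 and nhr-114. The median of the 19 was -0.03, against 0.01 over all features, and 68.4% were below 0, against 47.0% over all features. These shares are a description and not a separate test.

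The other lower genes of the 10 had unlike roles. F44G3.2, now named argk-1, an arginine kinase, was at 17.6, 18.1, 16.8 and 20.9 RPKM in cat-1 RNAi libraries and 9.24, 10.5, 12.6 and 7.07 RPKM in cat-2 RNAi libraries, against 20.97, 18.6, 21.8 and 21.4 RPKM in EV libraries. Its pooled value (log2 fold change -0.62 ± 0.12, limma, unadjusted p = 0.000113) combined libraries close to EV with libraries far below it. Y37A1B.5, now named semo-1, a member of the selenium-binding protein family, was at 9.36, 11.7, 12.1 and 12.7 RPKM in cat-1 RNAi libraries and 11.1, 12.4, 11.3 and 11.6 RPKM in cat-2 RNAi libraries, against 14.1, 14.9, 14.5 and 15.6 RPKM in EV libraries. The groups did not overlap (log2 fold change -0.35 ± 0.08, limma, unadjusted p = 0.000449). col-119, a cuticle collagen, was at 404 to 518 RPKM, with a median of 446 RPKM, in the 8 RNAi libraries, against 484, 514, 537 and 592 RPKM in EV libraries, and 7 of 8 RNAi libraries were below the EV range (log2 fold change -0.25 ± 0.06, limma, unadjusted p = 0.000484). T02G6.6 had 7 reads in the 8 RNAi libraries, 5 of which were at 0 RPKM, against 32 reads in the 4 EV libraries. The read ratio was 0.108, with a 95% exact interval of 0.040 to 0.248 for counting error only. igdb-1, named after its values were seen as the gene with the most negative log2 fold change (-2.53 ± 0.62, limma, unadjusted p = 0.00173), was at 0 in 6 RNAi libraries, at 4.70 RPKM in cat-1 RNAi replicate 3 and at 1.40 RPKM in cat-2 RNAi replicate 1, against 3.43, 3.60, 3.93 and 5.64 RPKM in EV libraries. Without cat-1 RNAi replicate 3 igdb-1 passed the adjusted threshold in the pooled comparison, as the only feature called there.

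On the higher side the smallest p belonged to F56F3.7, an annotated non-coding RNA (chromosome III, 4458110 to 4458306). It was at 0.794, 1.28, 0.472 and 0.770 RPKM in cat-1 RNAi libraries and 2.09, 1.96, 1.08 and 2.59 RPKM in cat-2 RNAi libraries, against 0.263, 0.264, 0.260 and 0 RPKM in EV libraries. These values rest on 43 reads upon RNAi and 3 reads upon EV, a read ratio of 7.05 with a 95% exact interval of 2.26 to 35.5 for counting error only. No EV library reached 0.5 RPKM, so F56F3.7 passed the filter through RNAi libraries only, which favours the higher side. Every RNAi library was above every EV library, and the log2 fold change was 1.35 ± 0.21 (limma, unadjusted p = 1.84e-05, Benjamini-Hochberg adjusted p = 0.242). With weights given to the libraries it was the only feature to pass the adjusted threshold in the pooled comparison (adjusted p = 0.0488), and over the 24 alternatives its adjusted p ranged up to 0.832. Y38E10A.9 (30 reads upon RNAi and 2 upon EV), F56A4.10 (293 upon RNAi and 62 upon EV) and C01A2.1 (246 upon RNAi and 49 upon EV) were of a similarly low level. Their log2 fold changes were 0.95, 0.81 and 0.90. Y38E10A.9 passed the filter through cat-1 RNAi libraries only.

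dod-24, a CUB-like gene of the intestine that is known from the innate immune response and from insulin signalling, was at 71.7, 63.4, 59.9 and 65.8 RPKM in cat-1 RNAi libraries and 60.3, 64.0, 49.9 and 58.5 RPKM in cat-2 RNAi libraries, against 51.0, 40.2, 45.4 and 48.6 RPKM in EV libraries. All RNAi libraries but cat-2 RNAi replicate 3 were above the EV range (log2 fold change 0.41 ± 0.07, limma, unadjusted p = 7.55e-05, Benjamini-Hochberg adjusted p = 0.275). Its family member dod-22 was at 12.01 ± 1.94 RPKM upon RNAi and 8.62 ± 1.34 RPKM upon EV (SD, n = 8 and n = 4), and 7 of 8 RNAi libraries were above the EV range. Across the 34 tested genes of the CUB-like and immune response list, 4 were higher (11.8%, and 4.84% over all features) and 1 was lower at an unadjusted p under 0.05, and the median was 0.07. Without both low-weight cat-2 RNAi libraries 4 were higher and 6 were lower. sdz-6, from the list of the intracellular pathogen response, was at 10.6 ± 1.61 RPKM upon RNAi and 7.29 ± 1.79 RPKM upon EV (log2 fold change 0.53, limma, unadjusted p = 0.00106). In that list 2 of 14 tested genes were higher and 0 were lower, and 8 were above 0. nspc-12 belongs to a family of short peptides found only in nematodes, with near-identical members among which reads may be split. It was at 12.1, 9.58, 13.4 and 5.73 RPKM in cat-1 RNAi libraries and 18.9, 17.7, 30.8 and 20.7 RPKM in cat-2 RNAi libraries, against 8.09, 6.60, 4.88 and 6.10 RPKM in EV libraries. Only cat-1 RNAi replicate 4 was within the EV range. Without that library nspc-12 was the only feature called in the pooled comparison. ftn-1, a ferritin heavy chain that stores iron, was at 15.3, 18.2, 20.6 and 16.8 RPKM in cat-1 RNAi libraries and 26.3, 26.7, 30.6 and 29.2 RPKM in cat-2 RNAi libraries, against 18.3, 11.4, 16.5 and 16.6 RPKM in EV libraries, so that its cat-1 RNAi libraries overlapped EV.

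The smallest differences among the 10 higher genes were those with the narrowest spread. tbc-14, which encodes a protein with the TBC domain of Rab GTPase-activating proteins, was at 35.7, 34.4, 31.5 and 34.6 RPKM in cat-1 RNAi libraries and 34.7, 36.3, 32.2 and 33.2 RPKM in cat-2 RNAi libraries, against 29.7, 29.5, 27.4 and 28.4 RPKM in EV libraries. The groups did not overlap, and the log2 fold change was 0.24 ± 0.05 (limma, unadjusted p = 0.000183, Benjamini-Hochberg adjusted p = 0.301). snrp-200, the helicase of the spliceosome known as Brr2, averaged 101 ± 4.11 RPKM upon RNAi and 89.8 ± 2.88 RPKM upon EV (SD, n = 8 and n = 4), and pqn-41, which encodes a glutamine-rich protein, averaged 25.6 ± 1.37 RPKM upon RNAi and 21.98 ± 0.59 RPKM upon EV. Both were above the EV range in 8 of 8 RNAi libraries, by log2 fold changes of 0.17 and 0.22. The pqn-41 locus overlaps F53A3.1 on the other strand.

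**Figure D2:**
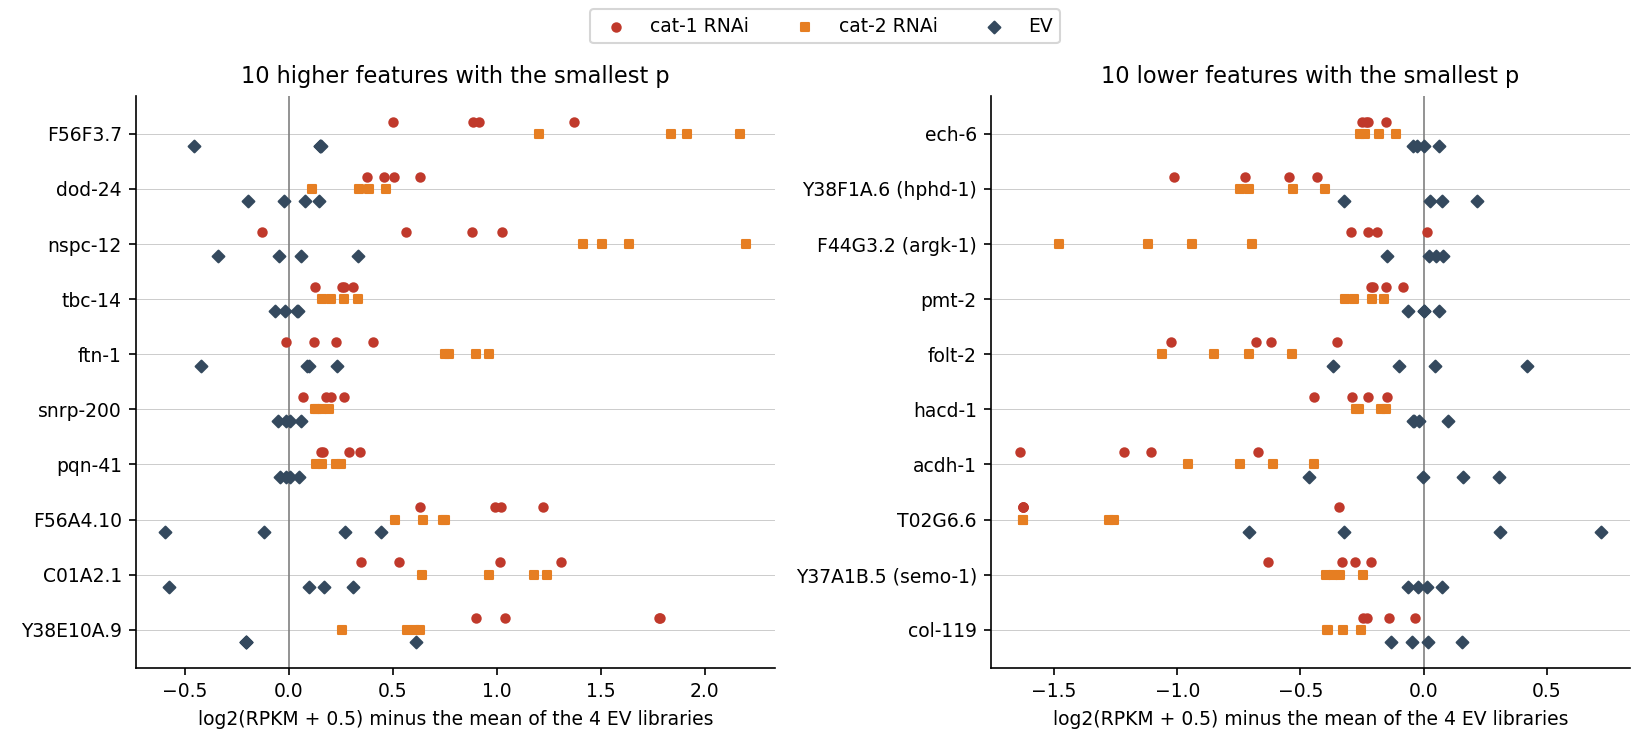
The 10 higher (left) and 10 lower (right) features with the smallest p in the pooled comparison, as log2(RPKM + 0.5) of each cat-1 RNAi, cat-2 RNAi and EV library minus the mean of the 4 EV libraries. All 8 RNAi libraries are outside the EV range for 6 of the higher features (F56F3.7, tbc-14, snrp-200, pqn-41, F56A4.10, C01A2.1) and for 5 of the lower ones (ech-6, hphd-1, pmt-2, hacd-1, semo-1). The share over all features tested was 0.669%. Since the features drawn were chosen by p in the same comparison, their separation is no further support.

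Pooling hides differences between both RNAi, so each treatment was also set against EV, with the same 4 EV libraries in both comparisons. For tbc-14 the log2 fold change was 0.24 upon cat-1 RNAi and 0.24 upon cat-2 RNAi, and their difference was 0.00 ± 0.05 (SE). For ech-6 the values were -0.21 upon cat-1 RNAi and -0.20 upon cat-2 RNAi, for hphd-1 -0.68 and -0.59, for semo-1 -0.36 and -0.34, and for folt-2 -0.67 and -0.79. The test of cat-1 RNAi against cat-2 RNAi gave unadjusted limma p-values between 0.492 and 0.972 for these 5 genes. For acdh-1 the log2 fold change was -1.16 upon cat-1 RNAi and -0.69 upon cat-2 RNAi, with an unadjusted p of 0.0466 for the difference. A different group had its distance from EV mostly upon cat-2 RNAi. argk-1 was at -0.17 upon cat-1 RNAi and -1.06 upon cat-2 RNAi, ftn-1 at 0.18 and 0.85, nspc-12 at 0.59 and 1.69, and F56F3.7 at 0.92 and 1.78. The difference between both RNAi had unadjusted limma p-values of 1.22e-05 for argk-1, 0.000134 for ftn-1, 0.000562 for nspc-12 and 0.00338 for F56F3.7, and the smallest adjusted p among them was 0.144. These 4 were also the features called upon cat-2 RNAi alone (4 of 13161, 0.0304%: 3 higher, 0.0228%, and 1 lower, 0.00760%, with 643 or 4.89% higher and 520 or 3.95% lower before adjustment), a count that was 0 without cat-1 RNAi replicate 1, cat-2 RNAi replicate 1, EV replicate 3 or EV replicate 4. Upon cat-1 RNAi alone 0 features were called, with 454 (3.45%) higher and 328 (2.49%) lower before adjustment. Y38E10A.9 stood on the other side, at 1.38 upon cat-1 RNAi and 0.52 upon cat-2 RNAi. cat-1 RNAi against cat-2 RNAi called 0 features, with 416 (3.16%) higher and 432 (3.28%) lower before adjustment.

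**Figure D3:**
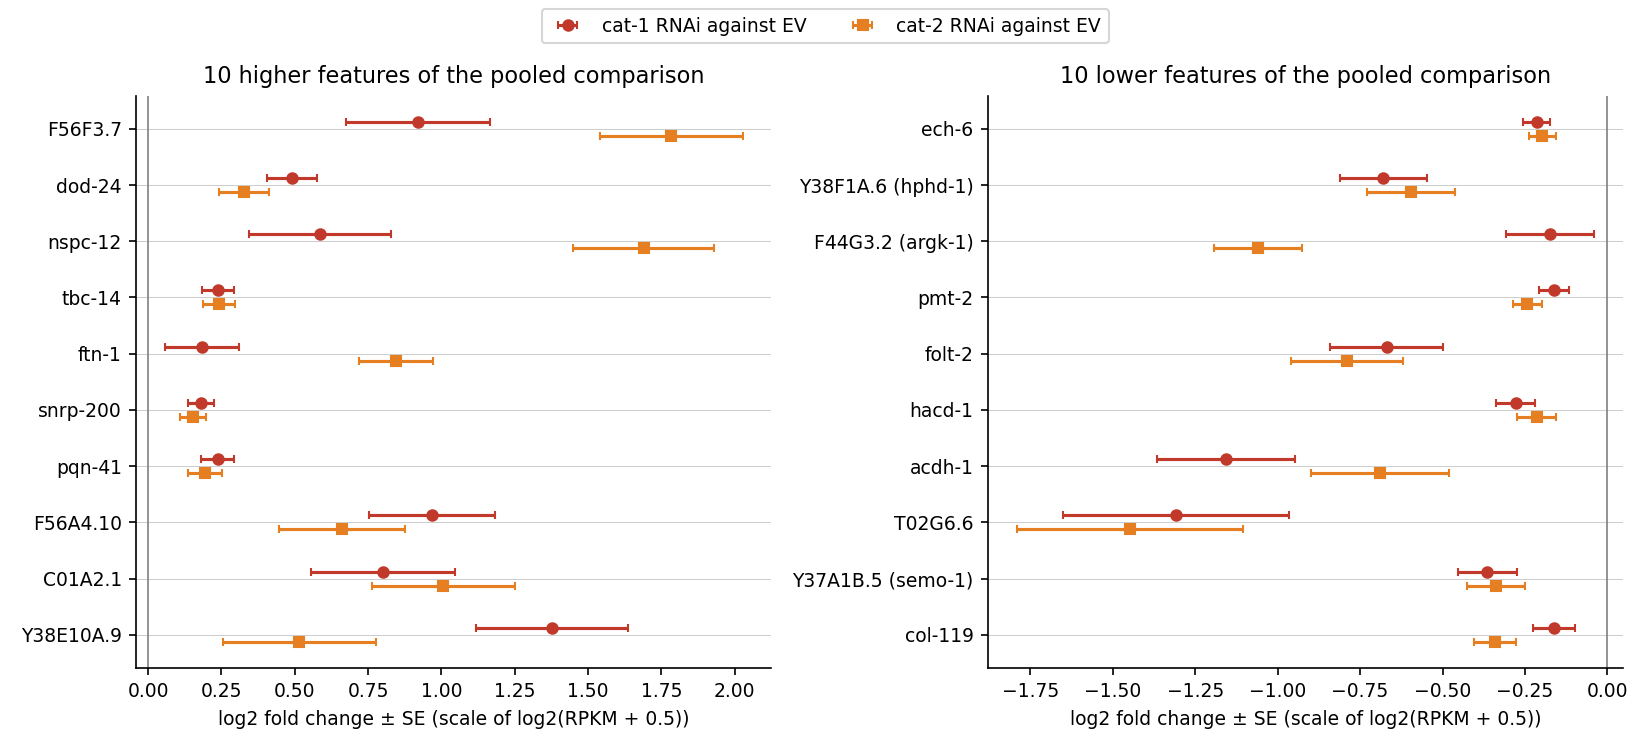
Log2 fold change ± SE on the log2(RPKM + 0.5) scale against EV, upon cat-1 RNAi and upon cat-2 RNAi, for the 10 higher (left) and 10 lower (right) features of the pooled comparison. Both comparisons share the EV libraries. The values lie close together for tbc-14, ech-6, hphd-1 and semo-1 and far apart for argk-1, ftn-1, nspc-12 and F56F3.7.

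Libraries were also compared without a model. All 8 RNAi libraries were above every EV library for 47 features (0.357%) and below every EV library for 41 (0.312%), 88 in all (0.669%). Without any difference, a proportion of 0.00404 is expected on both sides together. This is the smallest two-sided p that an exact permutation test of 8 against 4 can give. A large part of the 88 is thus expected by chance, and the features named here are a description, not calls. The differences were small here as well: 31 of the 47 and 30 of the 41 differed by a log2 fold change under 0.3 in size. The 41 lower features were more abundant, with a median of 48.6 RPKM, than all features tested (12.6 RPKM), and the median of the 47 higher ones was 24.9 RPKM. Of the 41, 15 (36.6%) belonged to at least 1 of the gene lists, as did 6 (12.8%) of the 47 and 17.3% of all features tested. Besides ech-6, hphd-1, hacd-1 and pmt-2 the 41 held, chosen after their values were seen, gpd-3 of glycolysis (log2 fold change -0.16), hgo-1, which opens the ring of homogentisate in tyrosine breakdown (-0.12), the elongase elo-6 of branched-chain fatty acids (-0.18), the ATP synthase subunit asb-1 (-0.11), the prohibitin phb-1 (-0.09) and the D-aspartate oxidase ddo-1 (-0.39). The aspartyl protease asp-10 was at 31.1 to 53.6 RPKM upon RNAi and 54.3 to 97.2 RPKM upon EV. The higher ones included uggt-1, the glucosyltransferase that checks glycoprotein folding in the endoplasmic reticulum (41.8 to 50.2 RPKM upon RNAi and 40.6 to 41.4 RPKM upon EV), the nuclear hormone receptor nhr-161 (0.39) and, chosen after their values were seen, the small GTPase arl-5 (0.18) and the transcription elongation factor emb-5 (0.11).

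Precision differed with abundance. Of the 1372 features with a mean of 100 RPKM or more, 29 were higher and 100 were lower at an unadjusted p under 0.05, with a median SE of 0.04 on the log2 scale. Of the 1883 features under 1 RPKM, 63 were higher and 47 were lower, with a median SE of 0.21. Over all features tested 4.84% were higher and 3.20% were lower. Under 1 RPKM the median SE was about as large as the size of the log2 fold change of ech-6. A difference that small was thus within the error of a typical feature there. The part of sequencing depth in this was not tested.

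The abundant gene families were mostly on the lower side, by small amounts. Of 80 tested cytosolic ribosomal protein genes, 23 were lower (28.8%) and 0 were higher at an unadjusted p under 0.05, 78 were below 0, and the median was -0.12. rpl-31 was at 730 ± 41.0 RPKM upon RNAi and 811 ± 16.3 RPKM upon EV, and rps-7 was below the EV range in 8 of 8 RNAi libraries. This count depended on the scaling, since after quantile normalization 3 were lower and the median was -0.04. By library, the median deviation of the ribosomal list was 0.05 in cat-1 RNAi replicate 3 and -0.42 in cat-2 RNAi replicate 2. The other RNAi libraries were at -0.16 to -0.05 and EV libraries at -0.03 to 0.01. Of 50 genes of oxidative phosphorylation 12 were lower and 0 higher, with a median of -0.07. Of 54 genes of glycolysis, gluconeogenesis and the citrate cycle 10 were lower and 0 higher, with a median of -0.04. The 13 genes of branched-chain amino acid breakdown, whose products include propionyl-CoA, were all below 0, and 3 were lower at that threshold (acaa-2, kat-1 and alh-8), with a median of -0.07. After quantile normalization 8 genes of oxidative phosphorylation, 5 of glycolysis, gluconeogenesis and the citrate cycle and 1 of branched-chain amino acid breakdown were lower. In each of these lists the median deviation of cat-1 RNAi replicate 3 was within the EV range, and every other RNAi library was below it. In fatty acid synthesis, elo-5 and elo-6, which make branched-chain fatty acids, were at log2 fold changes of -0.15 and -0.18, while the fatty acid synthase fasn-1 was at 0.26. Over all features the corresponding shares were 4.84% higher and 3.20% lower, 47.0% were below 0, and the median was 0.01.

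Genes of the cuticle were on both sides. Of 73 tested collagens 16 were lower (21.9%, and 3.20% over all features) and 3 were higher at an unadjusted p under 0.05, with a median of -0.11. The median deviation of the collagens was -0.28 to -0.15 in cat-2 RNAi replicates 2, 3 and 4 and -0.09 to 0.03 in the other RNAi libraries. EV libraries were at -0.04 to 0.07, so the groups overlapped. col-140 was at 508 ± 28.3 RPKM upon RNAi and 587 ± 38.7 RPKM upon EV (SD, n = 8 and n = 4) and below the EV range in 8 of 8 RNAi libraries. Of 80 genes of cuticle shape and molting 15 were higher (18.8%, and 4.84% over all features) and 1 was lower, with a median of 0.11. By library, the median deviation of this list was between 0.09 and 0.26 in 5 RNAi libraries and between -0.05 and -0.01 in cat-1 RNAi replicates 3 and 4 and cat-2 RNAi replicate 3, against -0.07 to 0.08 in EV libraries, so that the groups overlapped. Without cat-2 RNAi replicate 3, 22 were higher. cutl-20, a cuticlin-like gene, was at 6.99, 6.45, 3.39 and 3.05 RPKM in cat-1 RNAi libraries and 5.46, 6.29, 3.93 and 8.0 RPKM in cat-2 RNAi libraries, against 2.17, 3.53, 1.93 and 2.33 RPKM in EV libraries (log2 fold change 0.96, limma, unadjusted p = 0.00103). Its cat-1 RNAi replicates 3 and 4 overlapped EV. cutl-23 was above the EV range in 8 of 8 RNAi libraries, at 1.03 ± 0.27 RPKM (390 reads) upon RNAi and 0.59 ± 0.13 RPKM (109 reads) upon EV. Its locus overlaps Y37B11A.2 on the other strand. The hypodermal markers dpy-7 and col-19 were on opposite sides too. dpy-7, a collagen gene of the molts, averaged 1.202 ± 0.71 RPKM (221 reads) upon RNAi and 0.43 ± 0.13 RPKM (39 reads) upon EV, and col-19, of the adult cuticle, 129 ± 16.7 RPKM upon RNAi and 145 ± 2.51 RPKM upon EV. The summed level of these and rol-6 was 95.05 to 148 RPKM upon RNAi, lowest in cat-2 RNAi replicate 2, and 143 to 149 RPKM upon EV. The share of this marker difference in the cuticle lists was not tested. F-box, MATH and BATH genes, which encode substrate adaptors of ubiquitin ligases, had 25 higher (7.58%) and 3 lower of 330 tested, and histones 9 higher (14.3%) and 0 lower of 63, where the share of all features was 4.84% higher. Without cat-2 RNAi replicate 3, 48 of the F-box, MATH and BATH genes were higher, as were 981 of all 13161 features. Without cat-2 RNAi replicate 2, 19 of these genes were higher and 5 were lower. In the median deviation of this list, cat-1 RNAi replicates 3 and 4 were within the EV range and cat-2 RNAi replicate 3 was below it. The median deviation of histones was -0.03 to 0.14 in RNAi libraries and -0.07 to 0.11 in EV libraries, so the groups overlapped. Some histones had few reads, such as his-6 with 8 to 24 in RNAi libraries and 2 to 11 in EV libraries.

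**Figure D4:**
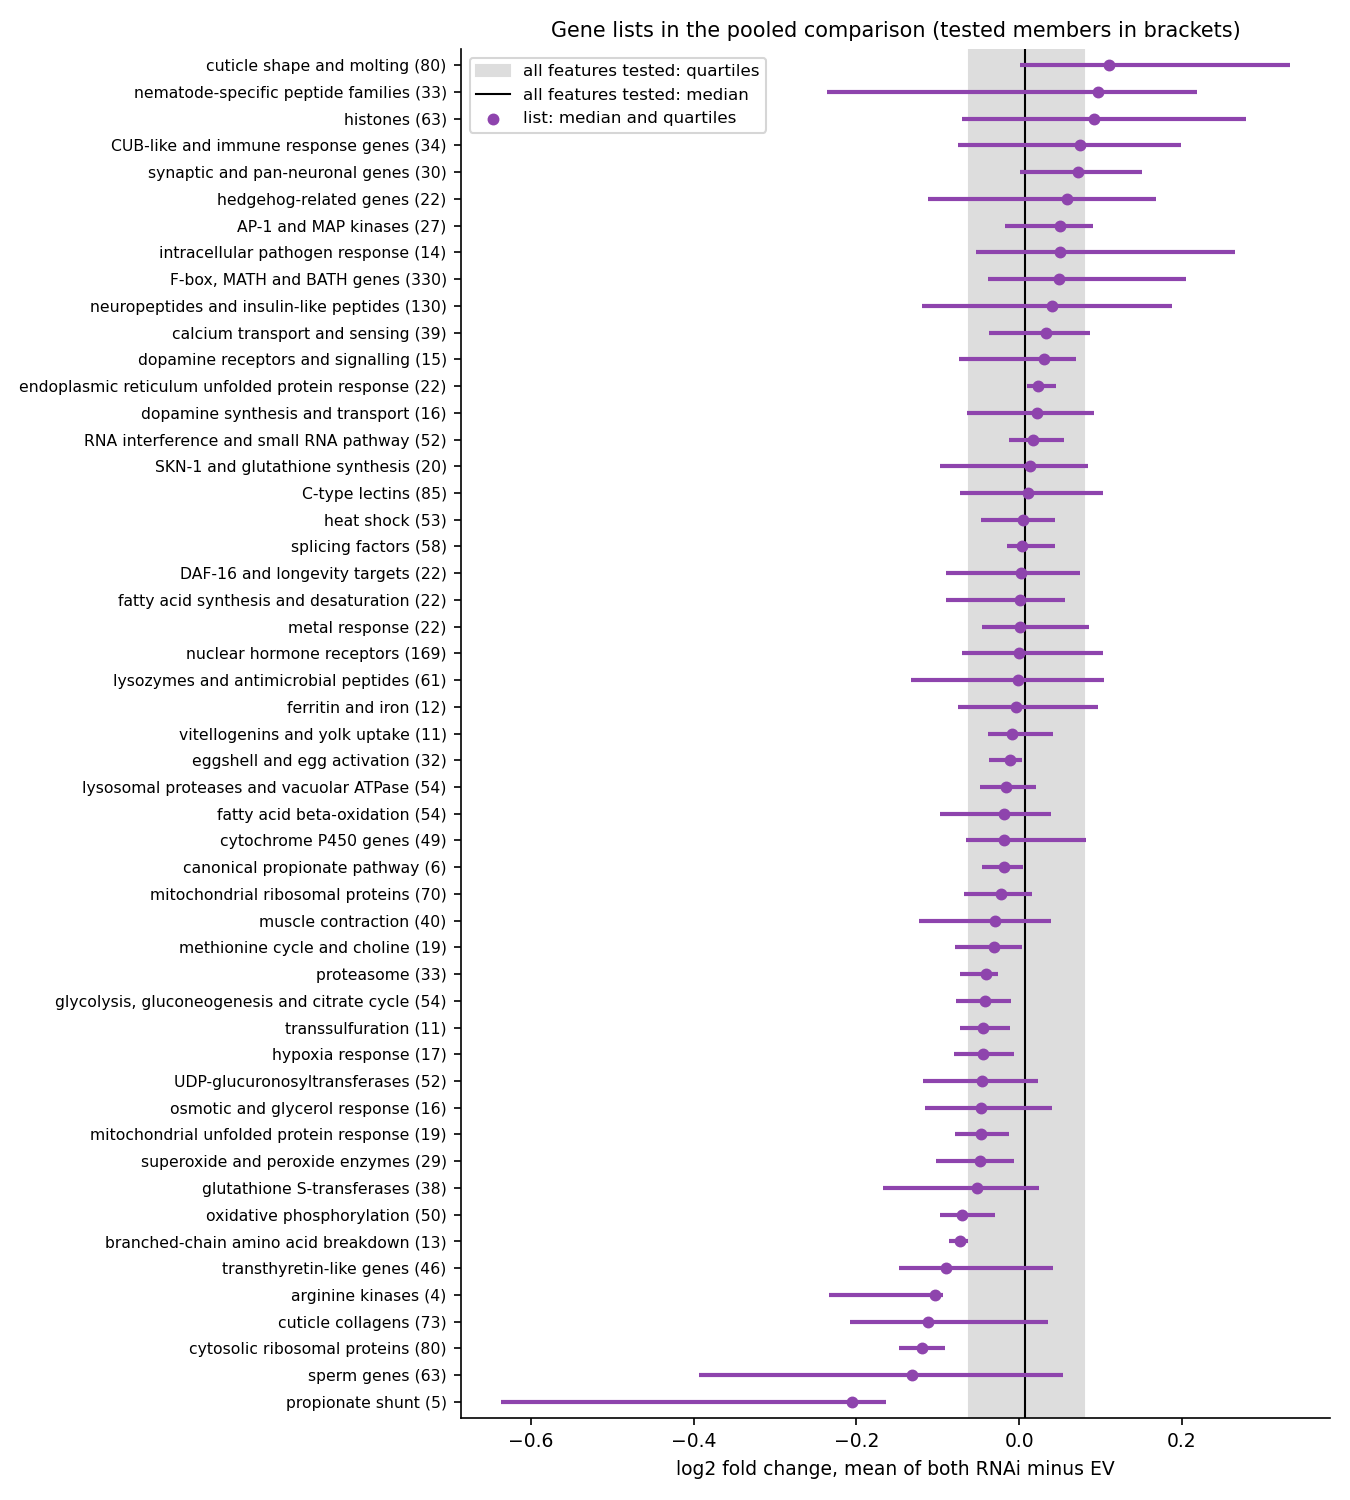
Median (point) and quartiles (line) of the pooled log2 fold change on the log2(RPKM + 0.5) scale for each gene list, with the number of tested members in brackets and the median and quartiles of all 13161 features as a line and a grey band. Tissue marker lists of 2 to 4 genes are not drawn. Among the lists drawn, the median is lowest for the propionate shunt, at -0.21, and highest for cuticle shape and molting, at 0.11, and cytosolic ribosomal proteins are at -0.12 (-0.04 after quantile normalization).

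The following lists of dopamine biology and of stress held at most 4 genes on each side at the unadjusted threshold, where over all features 4.84% were higher, 3.20% were lower and 47.0% were below 0. Of 16 tested genes of dopamine synthesis and transport, 1 was higher and 1 was lower. The higher one was cat-2 itself, with the limit on construct reads given above. It passed the filter through cat-2 RNAi libraries only. The lower one was qdpr-1, the reductase that recycles the tetrahydrobiopterin cofactor of tyrosine hydroxylase (44.2 ± 2.98 RPKM upon RNAi and 49.1 ± 2.10 RPKM upon EV, SD, n = 8 and n = 4). bas-1 was at 7.91 ± 0.73 RPKM upon RNAi and 8.30 ± 0.89 RPKM upon EV, and dat-1, the dopamine reuptake transporter, had 26 reads in the 8 RNAi libraries and 10 in the 4 EV libraries. Of 15 genes of dopamine receptors and signalling, 0 reached an unadjusted p of 0.05 in either direction. Among stress lists, 0 of 53 heat shock genes were higher and 2 were lower. Of 22 genes of the unfolded protein response of the endoplasmic reticulum 2 were higher (uggt-1 and atf-6) and 18 were above 0, with a median of 0.02. This count depended on the setting. Without cat-2 RNAi replicate 2, 13 of them were above 0, with a median of 0.01, and after quantile normalization 19 were above 0. Of 29 superoxide and peroxide enzymes 0 were higher, 4 were lower (13.8%) and 22 were below 0. Of 38 glutathione S-transferases 1 was higher, 4 were lower (10.5%) and 25 were below 0. Of 20 genes of the SKN-1 response and glutathione synthesis 0 were higher and 3 were lower. gst-4, widely used to report SKN-1 activity, averaged 22.4 ± 3.65 RPKM upon RNAi and 27.1 ± 4.99 RPKM upon EV.

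Feature length moved with the pooled comparison. At an unadjusted p under 0.05, the longest of 5 equal length classes (2160 to 25871 bases) held 227 higher and 23 lower of 2632 features. The shortest (100 to 715 bases) held 102 higher and 108 lower of 2633. Over all 13161 features 637 were higher (4.84%) and 421 were lower (3.20%). By library, the median deviation of the longest class minus that of the shortest was 0.22 in cat-2 RNAi replicate 2 and between -0.09 and 0.04 in the other 11 libraries. Without cat-2 RNAi replicate 2 the longest class still held 192 higher and 32 lower, where all features held 623 higher and 502 lower. The ribosomal protein genes, with a median length of 633 bases, and the genes of cuticle shape and molting, at 2154 bases, lie on opposite sides of the median of 1265 bases of all features tested. Without that library 28 ribosomal protein genes were lower, with a median of -0.08, and 14 genes of cuticle shape and molting were higher. The part of length in these counts was not tested. Propionate shunt genes had the same direction without that library, with 4 of 5 lower and a median of -0.21. After quantile normalization of all libraries 3 of 5 were lower, with a median of -0.19.

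**Figure D5:**
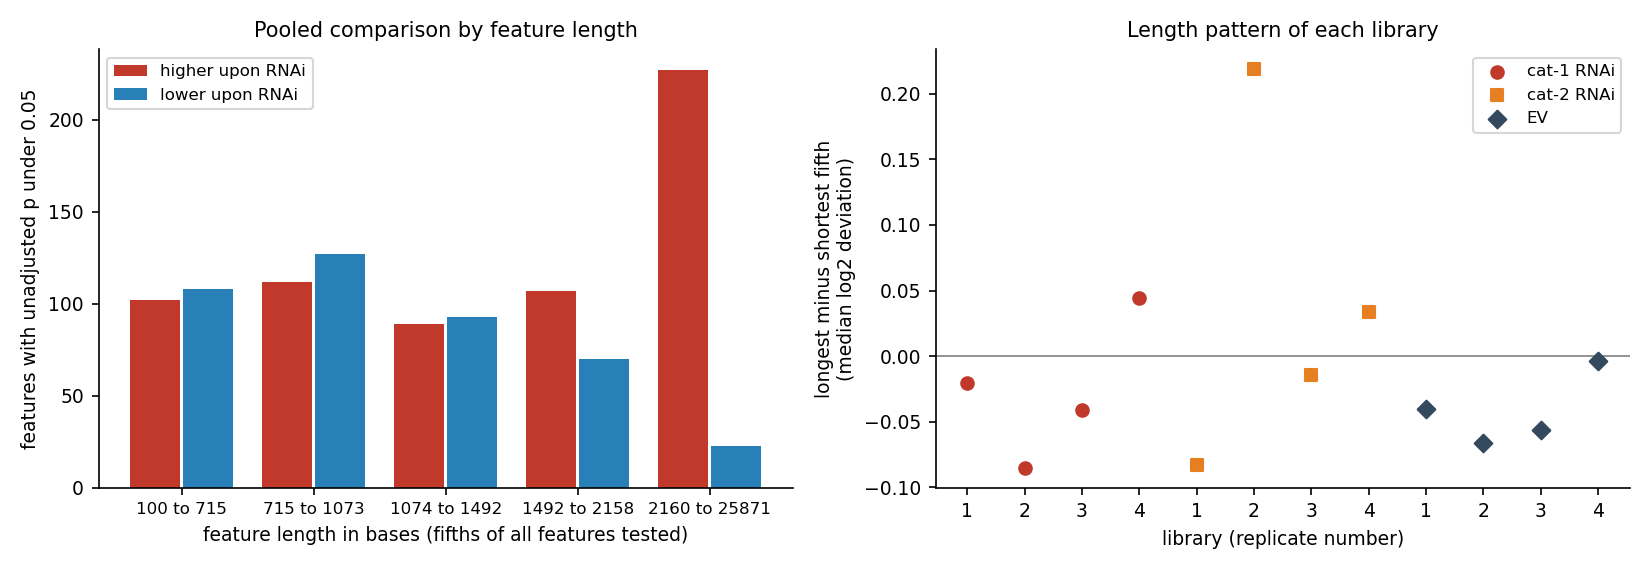
Left, number of features with an unadjusted p under 0.05 that were higher or lower upon RNAi, in each of 5 length classes of 2632 or 2633 features. Right, median log2 deviation of the longest class minus that of the shortest in each of the 12 libraries, where cat-2 RNAi replicate 2 is at 0.22 and the others are between -0.09 and 0.04.

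Markers of the tissues in a whole worm mostly overlapped between groups. Their summed levels were 81.3 to 92.2 RPKM upon RNAi and 85.7 to 96.9 RPKM upon EV for 4 genes of the intestine, and 83.1 to 103.6 RPKM upon RNAi and 80.2 to 166 RPKM upon EV for 3 genes of body muscle, the highest value being that of EV replicate 2. The 4 neuronal genes summed to 248 to 287 RPKM upon RNAi and 246 to 268 RPKM upon EV. Sperm markers were near 0 in every library, at 0.41 to 2.05 RPKM upon RNAi and 0.91 to 1.96 RPKM upon EV, whereas oocyte markers reached 1272 to 1425 RPKM upon RNAi and 1356 to 1408 RPKM upon EV. Eggshell markers overlapped only at the edge, at 2138 to 2255 RPKM upon RNAi and 2239 to 2431 RPKM upon EV. Germline markers were at 840 to 919 RPKM upon RNAi and 873 to 913 RPKM upon EV. Those of the pharynx were at 0.89 to 1.72 RPKM upon RNAi and 1.09 to 1.59 RPKM upon EV. Markers of dopaminergic neurons, the cells meant to receive the RNAi, summed to 7.46 to 10.4 RPKM upon RNAi and 7.27 to 9.13 RPKM upon EV. Most of that was bas-1, which serotonergic neurons also express, and dat-1 was at no more than 0.169 RPKM in any library. The values above describe the whole animal.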

How the data were processed

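Whole-worm poly(A) RNA was sequenced as paired-end reads of 150 bases. The authors used CLC software and deposited 1 table of RPKM per gene feature on genome build ce11 (build per the submitters' processing notes). How reads were mapped, whether strand was used and how reads with several places were treated was not given in the sources used here. Not used were the 3 columns of the authors' group means and the 6 columns of their own tests (fold changes and p-values). The deposited RPKM values were whole multiples of 1 read for 100.0% of features above 0 (tolerance 0.0001 reads), so that read counts could be recovered, and the totals used for scaling were 18765779 to 21493743 reads per library. Read-ratio intervals are exact and cover counting error only.

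The 12 libraries were grouped by their labels (cat-1 RNAi, cat-2 RNAi, EV; 4 each). Features with at least 0.5 RPKM in at least 4 libraries (13161) were tested on log2(RPKM + 0.5) with limma 3.58.1 (R 4.3.3; trend and robust estimation), as 1 mean per group, with the contrast of the mean of both RNAi minus EV and Benjamini-Hochberg adjustment over all features. The model was also run on simulated reads in which no library was set apart from its group, unlike cat-2 RNAi replicate 2 here. That run does not cover such libraries, and no result above rests on it. Single targets were compared by two-sided exact permutation tests. Alternatives were median-ratio scaling, quantile normalization, other pseudocounts and filters, a replicate block, library weights, no trend, voom on recovered reads, and leaving out each library. Coordinates are from the Ensembl annotation of WBcel235, the same assembly as ce11, which matched 12862 of the tested features. No sequence is shown.

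Named genes were, for each direction, the 10 with the smallest p, since fewer than 10 passed the adjusted threshold, the up to 4 members of each described list with the smallest p, and the members of the propionate, methionine, transsulfuration and dopamine lists. Other genes are marked as chosen after their values were seen. Of 61 lists, 3345 of 3355 names were found. The comparison and the lists were chosen with earlier results of these data known.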

Additional observations from a re-analysis of the deposited data

Results flagged for a closer look

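Among 225 groups of 4 libraries examined for the named genes, 9 held a library far from the other 3 of its group, where chance alone is expected to give about 1 in 20. F56F3.7 was at 0 in EV replicate 4, against 0.260 to 0.264 RPKM in the other EV libraries. Y38E10A.9 was at 0.380 RPKM in EV replicate 1 and at 0 in the others. hacd-1 was at 97.4 RPKM in EV replicate 2, against 88.1 to 89.6 RPKM in the others. T02G6.6 was at 0.717 RPKM in cat-1 RNAi replicate 2 and at 0 in the other cat-1 RNAi libraries. mmaa-1 was at 65.2 RPKM in cat-2 RNAi replicate 3, against 77.6 to 79.1 RPKM in the other cat-2 RNAi libraries. dao-3, a folate enzyme, was at 26.4 RPKM in the same library, against 28.6 to 28.8 RPKM, and at 27.0 RPKM in EV replicate 2, against 29.03 to 29.4 RPKM in the other EV libraries. cat-2 was at 0.209 RPKM in EV replicate 3, against 0.116 to 0.121 RPKM, and bas-1 at 6.97 RPKM in EV replicate 1, against 8.63 to 8.86 RPKM in the others.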

How the results depend on the processing

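The pooled comparison called 0 features, and 0 to 1 without 1 library (igdb-1 without cat-1 RNAi replicate 3, nspc-12 without cat-1 RNAi replicate 4). It called 1 with library weights (F56F3.7) and 1 without the 2 cat-2 RNAi libraries of lowest weight (F44G3.2), an alternative chosen after seeing the data. At an unadjusted p under 0.05, 1033 features were higher with library weights, and 375 (without EV replicate 4) to 981 (without cat-2 RNAi replicate 3) without 1 library. cat-1 RNAi against EV called 0 to 1 without 1 library. cat-1 RNAi against cat-2 RNAi called 1 with library weights, 1 with voom, 0 to 2 without 1 library and 2 without the low-weight libraries. cat-2 RNAi against EV called 4, and 2 with median-ratio scaling, 2 with quantile normalization, 1 with a pseudocount of 0.1, 0 without a filter, 0 without trend and robust estimation, 9 with library weights and 0 to 8 without 1 library. The cause of these shifts was not tested.

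Replicate numbers are not said to mark shared material, and libraries of the same number deviated together only weakly (correlations -0.058 to 0.185). With a replicate block the pooled comparison called 0 and cat-2 RNAi against EV 0. All 20 genes with the smallest p kept their direction in the 23 or 24 alternatives that gave them a value. Because these genes were chosen by p in the main fit and the alternatives reuse its libraries, this is no separate test of direction. Of 53 lists with at least 4 tested genes, 19 had a median between -0.05 and 0.05 that changed sign in at least 1 alternative, among them fatty acid synthesis and desaturation (11 of 24 alternatives), heat shock (9 of 24) and the canonical propionate pathway (0.0004 without cat-2 RNAi replicate 3). Precision was lowest for features under 1 RPKM, whose median SE was 0.21, against 0.04 at 100 RPKM and more.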
